A study of Mus musculus with 48 samples.

Results

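The genes described here are 10 genes of the unfolded protein response of the endoplasmic reticulum (ER): Hspa5, Herpud1, Xbp1, Atf6, Hsp90b1, Dnajb9, Dnajc3, Pdia4, Pdia6 and Calr. They were chosen by name, with earlier results of these data known, and each has a row in the count table of 55376 mouse genes. Of the 10, 8 lay at least 10 times above the background defined below and were tested among 8017 expressed genes, while Atf6 and Dnajb9 lay nearer to it, at 5.71 and 8.93 times, and were read from a wider fit.

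Newly made RNA was measured in TCF2.2, a line of mouse embryonic stem cells grown in 2i medium and labelled as strain C57BL/6, in 4 groups of 2 libraries that the series calls biological duplicates. Cells of the BRM014 group had been given 10 µM BRM014, an inhibitor of the ATPases of the SWI/SNF chromatin remodeller (BRG1, encoded by Smarca4, and BRM, encoded by Smarca2), for 3 h, and those of the DMSO group its solvent for 3 h. Cells of the Chd4 shRNA group carried a lentiviral short hairpin RNA against Chd4, the ATPase of the NuRD remodeller, and those of the scrambled group a scrambled hairpin, each after 24 h in 1.5 µg/mL puromycin. All cells took up 500 µM 4-thiouridine for 5 min before lysis, so that RNA made in that time could be pulled out and sequenced, and synthetic ERCC RNAs were added in proportion to cell number. The study is on SWI/SNF and NuRD loss in relation to RNA polymerase II at promoters, and its chromatin immunoprecipitation samples were not analysed here.

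The ER folds secreted and membrane proteins. When unfolded proteins accumulate, the chaperone BiP (Hspa5) is drawn off the sensors in its membrane. PERK slows translation and raises ATF4, IRE1 splices the RNA of Xbp1 into the form that encodes an active factor, and ATF6 is cleaved so that its cytosolic part enters the nucleus. XBP1 and ATF6 act together with the CCAAT-binding factor NF-Y at the ER stress response element (ERSE) and raise chaperones, disulfide isomerases and genes of ER-associated degradation. Gene counts do not separate the spliced and unspliced forms of Xbp1 RNA.

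The ERSE is the letter sequence that many of these genes are known to share, so its matches are shown first. It was searched as CCAAT, any 9 bases and CCACG, on either strand, in RefSeq windows (GRCm38.p6) that reach from 250 bases before to 50 bases after the annotated transcription start. Of the 10 genes, 9 had such a window. Atf6 had none. The match was found in the windows of Hspa5, Hsp90b1, Dnajc3, Pdia6 and Calr, with 2 matches in Hsp90b1, and capitals mark its fixed letters in the sites below, each written 5′ to 3′ on the strand that reads CCAAT first.
Hspa5: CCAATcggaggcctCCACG
Hsp90b1, upstream match: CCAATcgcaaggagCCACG
Hsp90b1, downstream match: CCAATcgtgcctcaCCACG
Dnajc3: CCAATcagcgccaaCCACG
Pdia6: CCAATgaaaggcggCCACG
Calr: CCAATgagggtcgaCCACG
The downstream match of Hsp90b1 and the match of Calr lie on the strand opposite to the gene. The first bases of these sites stood at -65 in Hspa5, -212 and -107 in Hsp90b1, -105 in Dnajc3, -98 in Pdia6 and -162 in Calr, counted along the gene's strand from the start.

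The window of Herpud1 held the related ERSE-II, searched as ATTGG, any base and CCACG, at -52. The promoters of Hspa5 and Herpud1 are given up to the base before the start because both genes were higher in both comparisons below and they hold 1 element of each kind. Capitals mark the fixed letters of the element. Hspa5 reads chr2:34771840-34772089 and Herpud1 chr8:94386179-94386428, both on the plus strand.
Hspa5 promoter: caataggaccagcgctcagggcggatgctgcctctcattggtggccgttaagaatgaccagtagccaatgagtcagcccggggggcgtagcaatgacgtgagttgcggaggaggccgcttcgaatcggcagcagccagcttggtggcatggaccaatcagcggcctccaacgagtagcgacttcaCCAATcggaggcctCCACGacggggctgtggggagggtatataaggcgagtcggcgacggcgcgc
Herpud1 promoter: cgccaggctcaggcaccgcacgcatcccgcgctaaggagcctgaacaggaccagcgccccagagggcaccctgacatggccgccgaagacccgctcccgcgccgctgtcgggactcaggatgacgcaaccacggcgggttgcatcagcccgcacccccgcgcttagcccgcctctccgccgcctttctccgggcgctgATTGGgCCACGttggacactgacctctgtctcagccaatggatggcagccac
An ERSE was present in 5 of the 9 windows, against 39 of all 32851 windows (0.119%) and 10 of the 5583 windows of expressed genes (0.179%). An ERSE-II was present in 1 of the 9, against 0.0365% of all windows and 0.125% of the windows of expressed genes. The second part alone, CCACG, was in 8 of the 9 windows, in 32.8% of all windows and in 50.7% of those of expressed genes. Every ERSE and ERSE-II match contains it. The windows of Xbp1, Pdia4 and Dnajb9 held neither element, and that of Xbp1 had no CCACG. The TGACGTGG site of XBP1 and ATF6 was in none of the 9 (0.676% of all windows, 0.842% of those of expressed genes). The C/EBP-ATF site TGATGNAAN, searched with any base at N, was in Herpud1 alone (3.95% of all, 2.24% of expressed). The E-box CACGTG was in Dnajb9 and Calr (7.15% of all, 11.3% of expressed). These are letter matches and not measured binding. Many of these genes were already known to share the ERSE, so its share among the 9 windows carries no test.

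**Figure D1:**
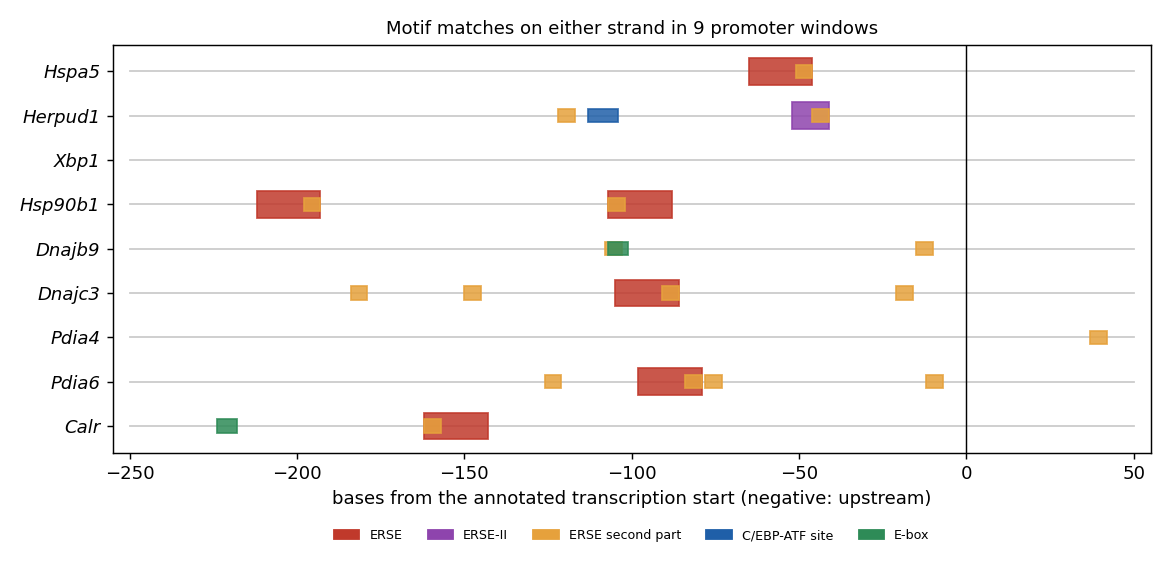
Motif matches in the promoter windows of 9 genes, drawn by distance in bases from the annotated start (x axis, negative is upstream), one gene to a line. Tall red boxes are ERSE matches, in 5 genes, the tall purple box is the ERSE-II of Herpud1, and low boxes are the second part of the ERSE (CCACG), the C/EBP-ATF site and the E-box. The line of Xbp1 is empty.

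The libraries held between 6982354 and 17128981 gene counts. Background, taken from 1434 olfactory and vomeronasal receptor genes that stem cells do not need, took 11.9% and 13.6% of the gene counts in the libraries labelled Chd4 shRNA, against 1.45% to 2.38% in the other 6. Values below are CPM, counts scaled to a common total of expressed-gene counts after TMM scaling, so each is relative to the other expressed genes, and in bulk RNA fewer cells making a transcript and less of it per cell cannot be told apart. A gene was called higher or lower at a Benjamini-Hochberg adjusted p under 0.05 in edgeR's quasi-likelihood F test, fitted on all 8 libraries. With 2 libraries on each side, the smallest two-sided p of an exact permutation test is 0.333, so none was used for single genes. Nascent RNA of the targeted gene was not lower: Chd4 averaged 122 ± 5.68 CPM in the libraries labelled Chd4 shRNA and 81.2 ± 16.1 CPM in the scrambled libraries (SD, n = 2 each). Its log2 fold change was 0.59 ± 0.16 (SE, edgeR adjusted p = 0.00614), and that of Smarca4 was 0.61 ± 0.17 (adjusted p = 0.00672). Chd4 was also higher in the scrambled than in the DMSO libraries, by 0.63 ± 0.16 (adjusted p = 0.0135). RNA made in 5 min does not show how much Chd4 RNA or protein was left. The knockdown was therefore not tested, and the group is named by its label. Smarca4 averaged 49.1 ± 7.01 CPM with BRM014 and 45.2 ± 9.39 CPM with DMSO (SD, n = 2 each), and BRM014 acts on the protein, so this level checks no label. All 10 stem cell markers were expressed, with a sum of 1860 and 1900 CPM in the libraries labelled Chd4 shRNA against 2920 to 3440 CPM in the other 6, and 8 of the 10 were lower in the hairpin comparison. The 7 fibroblast markers were all below the expressed range, at 73.7 to 81.9 CPM in sum in the libraries labelled Chd4 shRNA, where background alone would give 49.9 to 54.4, and at 9.65 to 12.5 CPM in the scrambled libraries, where it would give 6.93 to 9.44. Of the other markers, 1 of 6 for primitive endoderm, 1 of 5 for trophoblast, 0 of 5 for mesoderm and 0 of 5 for neural ectoderm were expressed. How far these differences bear on the values below was not tested.

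With BRM014, 4 of the 8 tested genes were higher than with DMSO and none was lower: Hspa5, Herpud1, Hsp90b1 and Calr. At an unadjusted p under 0.05, 5 were higher and 0 lower, where 1678 of all 8017 expressed genes passed in either direction. DESeq2 also called 4 higher and 0 lower, and of the 8017 it called 96 higher and 207 lower. In edgeR's test 2.46% of all expressed genes were called higher and 4.69% lower. The median log2 fold change of the 8 was 0.46, and that of all expressed genes was -0.0049. Dnajb9, read from the wider fit, was higher too. On library sizes set by the ERCC RNAs none of the 8 was called, with Hspa5 at 0.84 from plain ERCC sums (adjusted p = 0.281), and there 13 of the 8017 genes were called higher.

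With the libraries labelled Chd4 shRNA, 6 of the 8 were higher than in the scrambled libraries and none was lower: Hspa5, Hsp90b1, Dnajc3, Herpud1, Calr and Pdia4, a direction that holds relative to the other expressed genes and turns when the scale is set by all 35426 genes passing the default filter. There all 6 had a value below 0 and 3 of them, Herpud1, Pdia4 and Calr, were called lower, while the median expressed gene moved to -1.34 and Hspa5 to -0.18, or 1.17 above that median. Among all expressed genes 20.4% were called higher and 20.2% lower. At an unadjusted p under 0.05, 6 were higher and 0 lower, where 3913 of the 8017 expressed genes passed in either direction. DESeq2 also called 6 higher and 0 lower, and of the 8017 it called 1352 higher and 1369 lower. The median of the 8 was 0.79, against 0.0053 for all expressed genes. On plain ERCC sums the same count of 6 was higher, with a shift of 0.59 in the median gene. There 2809 of the 8017 genes were called higher and 65 lower. On TMM over all 92 ERCC RNAs none of the 8 was called, where 61 of the 8017 genes were called higher and 6 lower.

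**Figure D2:**
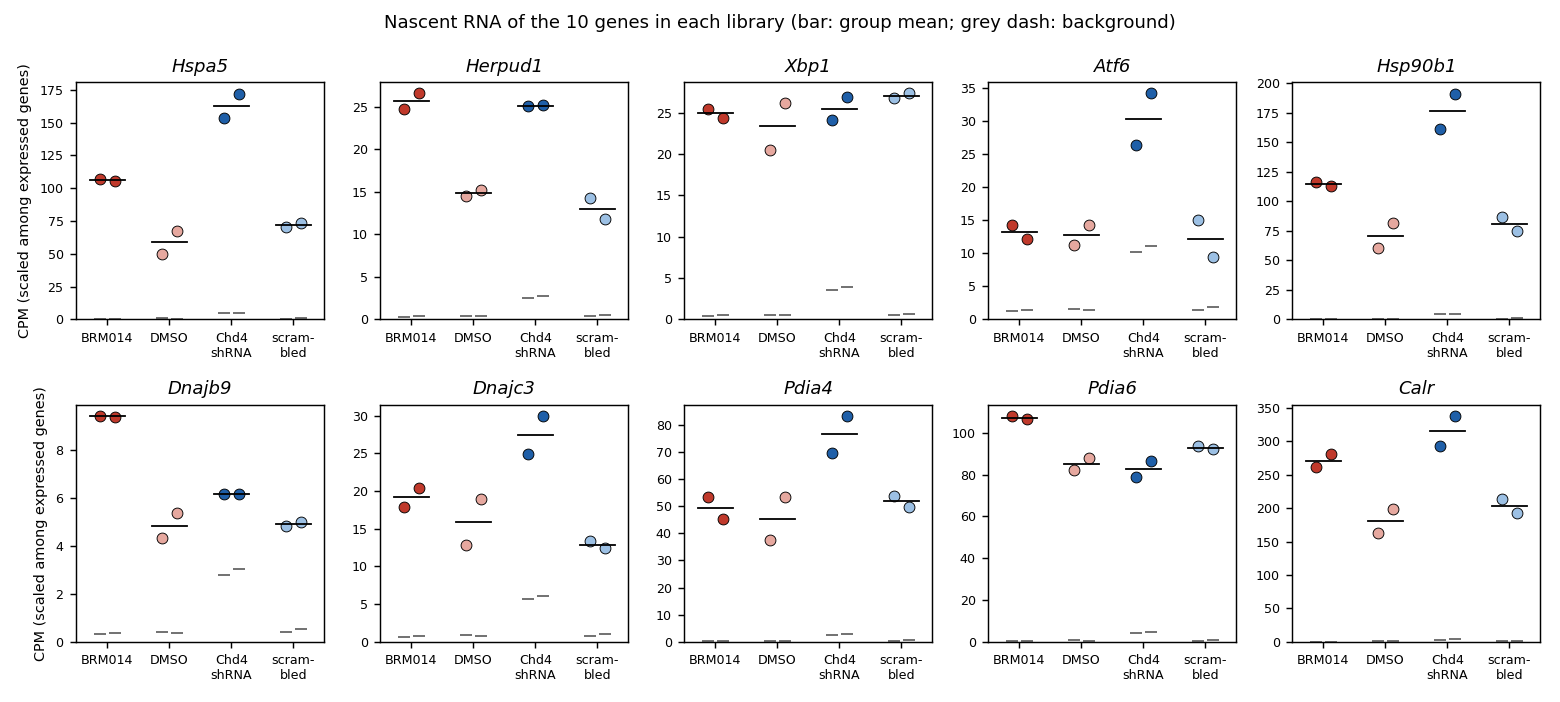
Nascent RNA of each of the 10 genes, in CPM scaled among expressed genes (y axis, from 0), in the BRM014, DMSO, Chd4 shRNA and scrambled libraries. Each point is a library, black bars are group means and grey dashes are the background in that library. Hspa5, Herpud1, Hsp90b1 and Calr lie above their controls in both pairs of groups, while the levels of Xbp1 lie together, on this scale among expressed genes.

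Hspa5 (chr2:34771970-34777547, plus strand, mm10), which encodes BiP, the main Hsp70 of the ER, had 106.6 and 105.4 CPM with BRM014 against 49.59 and 67.59 CPM with DMSO. Its level was 153.8 and 172.0 CPM in the libraries labelled Chd4 shRNA against 70.51 and 73.58 CPM in the scrambled libraries. In both pairs the treated libraries lay above both controls, with no overlap, and the control groups lay next to each other. The log2 fold change was 0.85 ± 0.14 (SE) with BRM014, 1.81-fold (adjusted p = 0.000502), and 1.18 ± 0.15 (SE) with the libraries labelled Chd4 shRNA, 2.26-fold (adjusted p = 4.96e-06). The counts behind it were large, between 614 and 1866 per library, with background at no more than 3.01% of them.

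Hsp90b1 (chr10:86690209-86705509, minus strand) encodes GRP94, the Hsp90 of the ER, which folds integrins and Toll-like receptors. It had 115.9 and 112.6 CPM with BRM014 against 60.47 and 81.17 CPM with DMSO, and 161.4 and 191.1 CPM in the libraries labelled Chd4 shRNA against 86.24 and 74.59 CPM in the scrambled libraries. Its pattern was that of Hspa5, with no overlap in either pair. It rose by a log2 fold change of 0.69 ± 0.15 (SE) with BRM014 (adjusted p = 0.00465) and by 1.13 ± 0.15 with the libraries labelled Chd4 shRNA (adjusted p = 1.04e-05). The row overlaps 1810014B01Rik on the opposite strand over 4598 bases and Gm15344 and Gm25745 on its own strand. These 3 rows held 223, 64.4 and 48.6 counts on average, against 1177 for Hsp90b1, and the strand setting of the counting is not given in the sources used here, so some reads may be divided between them.

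Calr (chr8:84841850-84846934, minus strand), the lectin chaperone calreticulin that binds calcium and monoglucosylated glycoproteins, was the most abundant of the 10. It had 260.8 and 280.3 CPM with BRM014 against 163.4 and 198.9 CPM with DMSO, and 293.0 and 337.8 CPM in the libraries labelled Chd4 shRNA against 213.1 and 192.5 CPM in the scrambled libraries. Treated libraries were above controls in both pairs, by smaller factors than for Hspa5. The log2 fold change was 0.58 ± 0.14 (SE) with BRM014, 1.49-fold (adjusted p = 0.0120), and 0.64 ± 0.14 with the libraries labelled Chd4 shRNA, 1.55-fold (adjusted p = 0.00129). The BRM014 call ended without library r2 of BRM014 (adjusted p = 0.150) and with the replicate number as a block (adjusted p = 0.229).

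Dnajb9 and Dnajc3 are a pair of J-domain cochaperones that stimulate the ATPase of BiP. Dnajb9 (chr12:44205559-44210326, minus strand), or ERdj4, known to hold IRE1 in its inactive state, had 118 and 166 counts with BRM014 against 70 and 94 counts with DMSO. That is 9.41 and 9.37 CPM with BRM014 against 4.33 and 5.34 CPM with DMSO, with no overlap. In a fit of 15464 genes at 3 times the background, kept on the library sizes of the expressed genes and added after the data were seen, it was higher by 0.95 ± 0.16 (SE; adjusted p = 0.000295), where 1.89% of genes were called higher. It was called higher without each of the 8 libraries in turn, with values between 0.81 and 1.12. The libraries labelled Chd4 shRNA held 38 and 37 counts of Dnajb9, of which background would give 17.3 and 18.4, against 42 and 44 counts in the scrambled libraries. On the CPM scale the libraries labelled Chd4 shRNA had 6.14 and 6.13, against 4.82 and 4.97 in the scrambled libraries. The log2 fold change there was 0.33 ± 0.23 (adjusted p = 0.238), and it was -0.44 in that fit once background was subtracted with the library sizes kept (adjusted p = 0.241), where the median expressed gene lay at -0.22, so neither direction can be read at this depth.

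Dnajc3 (chr14:118937976-118981697, plus strand), or p58IPK, which also inhibits PERK, had 17.94 and 20.44 CPM with BRM014 against 12.80 and 18.91 CPM with DMSO. These ranges overlapped, and the log2 fold change of 0.28 ± 0.16 (SE) was not called (adjusted p = 0.337). In the libraries labelled Chd4 shRNA it had 24.88 and 29.997 CPM against 13.32 and 12.41 CPM in the scrambled libraries. The groups lay apart, with a rise of 1.09 ± 0.18, 2.13-fold (adjusted p = 0.000108). Background made up 22.6% and 20.5% of its counts there, and with background subtracted the value was 1.07 (adjusted p = 0.000197). Without library r2 of DMSO, Dnajc3 was called higher with BRM014 as well, at 0.60 (adjusted p = 0.00453).

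The disulfide isomerases, which form and shuffle disulfide bonds in folding proteins, differed from each other. Pdia4 (chr6:47796141-47813430, minus strand), or ERp72, had 53.51 and 45.18 CPM with BRM014 against 37.47 and 53.17 CPM with DMSO. The ranges overlapped, and the log2 fold change was 0.12 ± 0.16 (SE; adjusted p = 0.731). In the libraries labelled Chd4 shRNA it had 69.62 and 83.20 CPM against 53.86 and 49.65 CPM in the scrambled libraries, a rise of 0.56 ± 0.16 (adjusted p = 0.00863). That call ended without library r4 of Chd4 shRNA (adjusted p = 0.113) and without library r3 of the scrambled hairpin (adjusted p = 0.0598).

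Pdia6 (chr12:17266545-17284770, plus strand), or P5, which is known to end the signal of IRE1, had 108.1 and 106.6 CPM with BRM014 against 82.36 and 87.98 CPM with DMSO. It had 78.67 and 86.68 CPM in the libraries labelled Chd4 shRNA against 93.48 and 92.09 CPM in the scrambled libraries. The libraries did not overlap in either pair, above the controls in the first and below in the second, yet neither difference was called. The log2 fold change was 0.33 ± 0.12 (SE) with BRM014 (adjusted p = 0.113), which was called without library r2 of DMSO (0.39, adjusted p = 0.0440), and -0.17 ± 0.13 with the libraries labelled Chd4 shRNA (adjusted p = 0.318), or -0.01 with background subtracted. Its window holds an ERSE, as those of Hspa5 and Calr do.

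Herpud1 (chr8:94386438-94395377, plus strand) encodes a membrane protein of the HRD1 complex, which passes misfolded proteins to the proteasome. It had 24.72 and 26.54 CPM with BRM014 against 14.53 and 15.22 CPM with DMSO, and 25.04 and 25.19 CPM in the libraries labelled Chd4 shRNA against 14.24 and 11.74 CPM in the scrambled libraries. The treated groups reached nearly the same level, and both lay clear of their controls. The log2 fold change was 0.79 ± 0.13 (SE) with BRM014, 1.72-fold (adjusted p = 0.000383), and 0.95 ± 0.15 with the libraries labelled Chd4 shRNA, 1.93-fold (adjusted p = 6.79e-05).

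Of the signal transducers, Xbp1 (chr11:5520659-5525893, plus strand) had 25.44 and 24.39 CPM with BRM014 against 20.47 and 26.19 CPM with DMSO, and 24.07 and 26.85 CPM in the libraries labelled Chd4 shRNA against 26.76 and 27.31 CPM in the scrambled libraries. All 8 libraries lay between 20.47 and 27.31 CPM and the groups overlapped in both pairs. The log2 fold change was 0.09 with a 95% interval from -0.19 to 0.37 for BRM014 (adjusted p = 0.766), and -0.09 with an interval from -0.40 to 0.23 for the libraries labelled Chd4 shRNA (adjusted p = 0.677). Both intervals stop short of the rises of Hspa5.

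Atf6 (chr1:170704674-170867771, minus strand) spans 163098 bases and had the lowest level per kb of exon in 3 of the 4 groups. With BRM014 it had 14.27 and 12.14 CPM against 11.19 and 14.31 CPM with DMSO, with full overlap and a log2 fold change of 0.04 ± 0.18 (SE; adjusted p = 0.938) in the wider fit. In the libraries labelled Chd4 shRNA it had 26.33 and 34.14 CPM against 14.93 and 9.48 CPM in the scrambled libraries. The groups lay apart, and the log2 fold change was 1.31 ± 0.19 (adjusted p = 2.68e-06), in a fit where 43.7% of genes were called higher in that comparison. Background would give 62.6 of its 163 counts and 66.5 of its 206 counts in the libraries labelled Chd4 shRNA. With background subtracted and the library sizes kept, the value was 0.89 (adjusted p = 0.00943), or 1.12 above the median expressed gene at -0.22. On the scale of all 35426 genes it was -0.04, or 1.30 above the median expressed gene there.

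**Figure D3:**
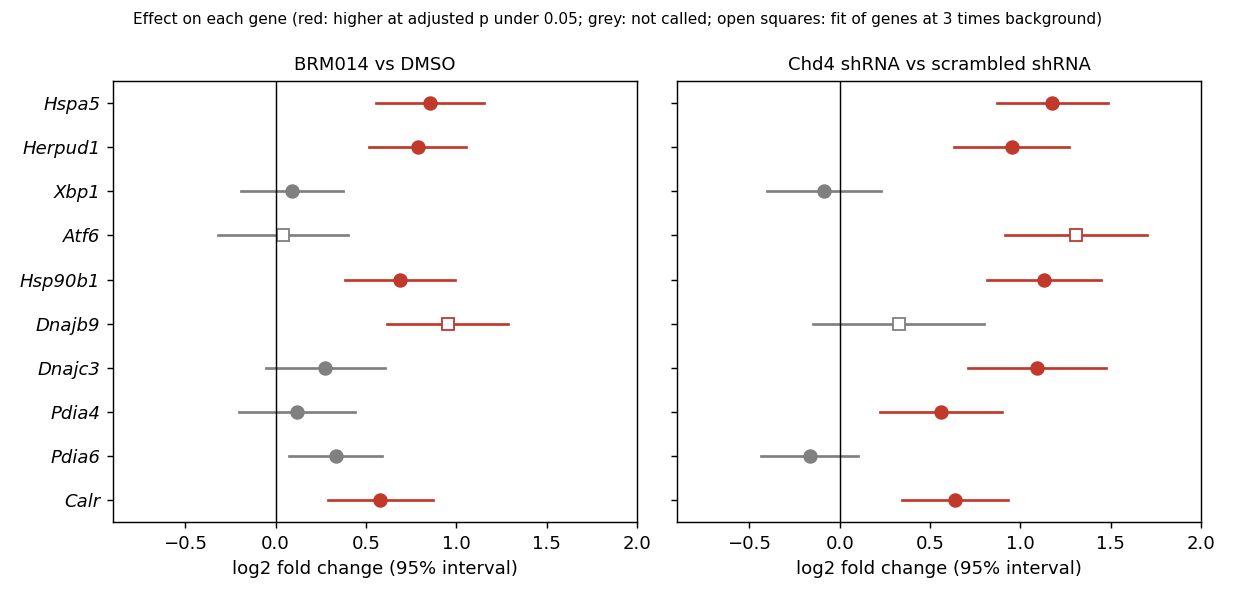
Log2 fold changes (x axis) with 95% intervals for the 10 genes, BRM014 against DMSO on the left and the libraries labelled Chd4 shRNA against scrambled shRNA on the right, relative to expressed genes. Red marks an adjusted p under 0.05, grey is not called, and open squares are the 2 genes read from the fit at 3 times the background. Hspa5, Herpud1, Hsp90b1 and Calr are red on both sides. On the scale of all genes passing the default filter the 6 red circles on the right would lie below 0.

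The difference between the BRM014 effect and the effect in the libraries labelled Chd4 shRNA was tested directly. It was called for 2 of the 8 genes, 1 in each direction, where 14.5% of expressed genes were higher and 16.4% lower. Dnajc3 changed less with BRM014, by -0.81 ± 0.24 (SE; adjusted p = 0.0145), and Pdia6 changed more, by 0.50 ± 0.18 (adjusted p = 0.0381), both relative to expressed genes. On the scale of all genes passing the default filter, where the median expressed gene lay at 1.40, the difference was called higher for all 8 and that of Dnajc3 was 0.61 (adjusted p = 0.0285). The difference for Pdia6 was 0.35 with background subtracted (adjusted p = 0.148) and was not called without either BRM014 library, either library labelled Chd4 shRNA or either scrambled library. That of Dnajc3 was not called without library r2 of DMSO (-0.48, adjusted p = 0.0680) or without library r4 of Chd4 shRNA (-0.66, adjusted p = 0.0803). For Hspa5 the difference was -0.32 with a 95% interval from -0.75 to 0.10, for Herpud1 -0.17 with an interval from -0.58 to 0.25 and for Calr -0.06 with an interval from -0.47 to 0.35. For Hsp90b1 it was -0.44 (adjusted p = 0.113) and for Pdia4 also -0.44 (adjusted p = 0.138), and none of these 5 differences was called. With background subtracted the difference was called for Hsp90b1 (-0.63, adjusted p = 0.0264) and Pdia4 (-0.62, adjusted p = 0.0396). Without library r1 of DMSO it was called for Hspa5 (-0.53, adjusted p = 0.0187), Hsp90b1 (-0.64, adjusted p = 0.00838) and Pdia4 (-0.67, adjusted p = 0.00884). In the wider fit, where 37.1% of genes had a lower difference, that of Atf6 was -1.27 ± 0.26 (adjusted p = 0.000293). It was -0.82 with background subtracted and the library sizes kept (adjusted p = 0.0724). That subtraction put the median expressed gene at 0.22, and relative to it the difference was -1.04 for Atf6 and 1.25 for Dnajb9. That of Dnajb9 was 0.63 ± 0.28 in the wider fit (adjusted p = 0.0712), and it was called at 1.47 with background subtracted in the same way (adjusted p = 0.00451) and at 0.79 without library r2 of DMSO (adjusted p = 0.0287).

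The control groups, which differ in solvent, virus, puromycin and time, were also compared. None of the 8 genes differed between the scrambled and the DMSO libraries in edgeR's test or in DESeq2, and none had an unadjusted p under 0.05 in the first, where 6.86% of expressed genes were called higher and 6.24% lower. The values ran from -0.31 for Dnajc3 to 0.30 for Hspa5. Without library r2 of DMSO they ran from -0.16 for Herpud1 to 0.54 for Hspa5, and without its library r1 from -0.56 for Dnajc3 to 0.09 for Hspa5. The DMSO libraries differed from each other more than the scrambled ones did for Hspa5, with SDs of 12.7 CPM in the DMSO libraries and 2.17 CPM in the scrambled libraries (n = 2 each).

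Being higher in both comparisons was shared by 4 of the 8 genes. It held for 1 of 100 expressed genes of the related lists below, which is Ddit3, and for 46 of all 8017 expressed genes (0.574%). The comparisons have no library in common, but they share the estimate of the spread. The genes and the lists were chosen with earlier results of these data known. The contrast between these shares may come from that choice, so it carries no test.

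Per kb of exon, Calr stood far above the rest in all groups and Atf6 was lowest in 3 of the 4. In the DMSO libraries the means were 62.9 CPM per kb for Calr, 22.7 for Pdia6, 18.9 for Pdia4, 17.6 for Hsp90b1, 13.9 for Hspa5, 7.18 for Xbp1, 6.38 for Herpud1, 3.08 for Dnajc3, 1.90 for Dnajb9 and 1.38 for Atf6. Neighbours from Pdia6 to Hspa5 overlapped over the DMSO libraries, as did Xbp1 and Herpud1. With BRM014 Hspa5 reached 25.1 CPM per kb, above Pdia4 at 20.6, and in the libraries labelled Chd4 shRNA Hsp90b1 (43.7) and Hspa5 (38.5) stood next to Calr (110), above Pdia4 (31.9) and Pdia6 (22.1). In those libraries Dnajb9, at 2.41 CPM per kb, was below Atf6, at 3.28, where background alone would give 1.09 and 1.19.

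Over the 8 libraries the log2 CPM of Hspa5 varied with that of Hsp90b1 (Pearson r = 0.988), Calr (0.972), Dnajc3 (0.887), Pdia4 (0.845) and Herpud1 (0.822), and little with Xbp1 (0.338) and Pdia6 (0.0105). These r describe 8 libraries that fall into 4 groups and share their scaling, so they carry no test. By the same measure the genes outside the 10 most like Hspa5 were Gm20537 (0.981), Glyr1 (0.979), Cdv3-ps (0.975), Rsrc2 (0.972) and Hexim1 (0.972). Those most like the mean of the 8 were Gm15344 (0.992), whose row overlaps Hsp90b1 on the same strand, then Glyr1 (0.990), Hexim1 (0.987), Mphosph8 (0.978) and Dnajc2 (0.975).

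Other genes of the same pathways were read from 7 lists of 140 genes in all, 100 of them expressed. With BRM014, 6 of the 100 were higher (2.46% of all expressed genes) and none lower, and their median was 0.07 on the log2 scale. With the libraries labelled Chd4 shRNA, 23 were higher (20.4% of all expressed genes) and 10 lower, with a median of 0.09 relative to expressed genes. Nothing particular to the lists is read from these counts.

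The branch of PERK and ATF4 held 3 of the 6 BRM014 calls, among 9 expressed genes, where 2.46% of all expressed genes were called higher. With the libraries labelled Chd4 shRNA 2 of the 9 were higher and 1 lower, with a median of -0.10. There 20.4% of all expressed genes were called higher and 20.2% lower. Ddit3, which encodes the transcription factor CHOP, had 53.11 and 57.77 CPM with BRM014 against 23.00 and 22.61 CPM with DMSO, and 34.25 and 35.47 CPM in the libraries labelled Chd4 shRNA against 17.80 and 17.38 CPM in the scrambled libraries. It was higher in both, by 1.28 ± 0.12 (SE; adjusted p = 9.40e-07) with BRM014 and by 0.99 ± 0.14 (adjusted p = 2.45e-05) with the libraries labelled Chd4 shRNA. Atf4, the factor whose translation PERK raises, had 260.3 and 271.4 CPM with BRM014 against 169.3 and 205.3 CPM with DMSO, but 131.3 and 130.3 CPM in the libraries labelled Chd4 shRNA against 204.9 and 208.8 CPM in the scrambled libraries. It rose by 0.51 ± 0.13 with BRM014 (adjusted p = 0.0203) and fell by 0.66 ± 0.14 with the libraries labelled Chd4 shRNA (adjusted p = 0.000679), and the difference of 1.17 ± 0.19 was itself called (adjusted p = 0.000131). Ppp1r15b, a subunit of the phosphatase that reverses the PERK signal, rose by 0.57 with BRM014 (adjusted p = 0.0250), and Nupr1, a small stress protein, rose by 0.77 with the libraries labelled Chd4 shRNA (adjusted p = 0.000153). Among 5 expressed sensors and proteases, Crebzf rose with BRM014 (0.48), and with the libraries labelled Chd4 shRNA Mbtps1, the site-1 protease that cuts ATF6, rose by 0.61 (adjusted p = 0.00276), Creb3 rose by 0.61 and Rtcb, the ligase that joins the cut Xbp1 RNA, fell by 0.87 (adjusted p = 0.000101).

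Among 17 other ER chaperones and cochaperones none was called with BRM014 by edgeR, where 3 were higher and 0 lower at an unadjusted p under 0.05, while the hairpin comparison had 5 higher and 2 lower. Hyou1, the Hsp110 that exchanges nucleotide on BiP, had 95.63 and 106.4 CPM in the libraries labelled Chd4 shRNA against 51.22 and 49.32 CPM in the scrambled libraries, a rise of 1.01 ± 0.15 (SE; adjusted p = 3.34e-05). Manf, a secreted protein that binds BiP, rose by 0.82 ± 0.13 (adjusted p = 8.23e-05). Its row overlaps Rbm15b on the same strand and Dcaf1 on the other. The prolyl isomerase Fkbp9 fell by 0.92 and the ATPase torsin 1A, encoded by Tor1a, by 0.99, each relative to expressed genes. The test of the difference was called for Hyou1 (-0.69 ± 0.21, adjusted p = 0.0160) and not for Manf (-0.44, adjusted p = 0.0729).

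Of 10 other disulfide isomerases and oxidases, Tmx1 rose with BRM014 (0.47, adjusted p = 0.0294). With the libraries labelled Chd4 shRNA Pdia5 rose by 0.78, while Txndc12 fell by 0.63 and the peroxiredoxin Prdx4 fell by 0.44. Of 20 other degradation genes none was called with BRM014, with 3 higher and 0 lower at an unadjusted p under 0.05 in edgeR's test, and 4 were higher with the libraries labelled Chd4 shRNA: the ubiquitin ligase Rnf185 (1.10 ± 0.19, adjusted p = 0.000145), Faf2 (0.63), Os9 (0.60), a lectin of the HRD1 complex, and Ubxn4 (0.51). Of 22 translocation genes Ssr3 rose with BRM014 (0.48). With the libraries labelled Chd4 shRNA 4 rose, among them Sec62 (0.71), Sec61g (0.68) and Ssr1 (0.48), and 2 fell, among them Ssr2 (-0.84). Of 17 glycosylation genes none was called with BRM014, with 1 higher and 0 lower at an unadjusted p under 0.05, and 5 were higher and 2 lower with the libraries labelled Chd4 shRNA, among them the oligosaccharyltransferase subunits Dad1 (0.63) and Ost4 (0.64) and the folding sensor Uggt1 (0.59), which were higher, and the glucosidase Mogs (-0.76), which was lower. These values are relative to expressed genes, whose median lies at -1.34 on the scale of all genes passing the default filter.

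**Figure D4:**
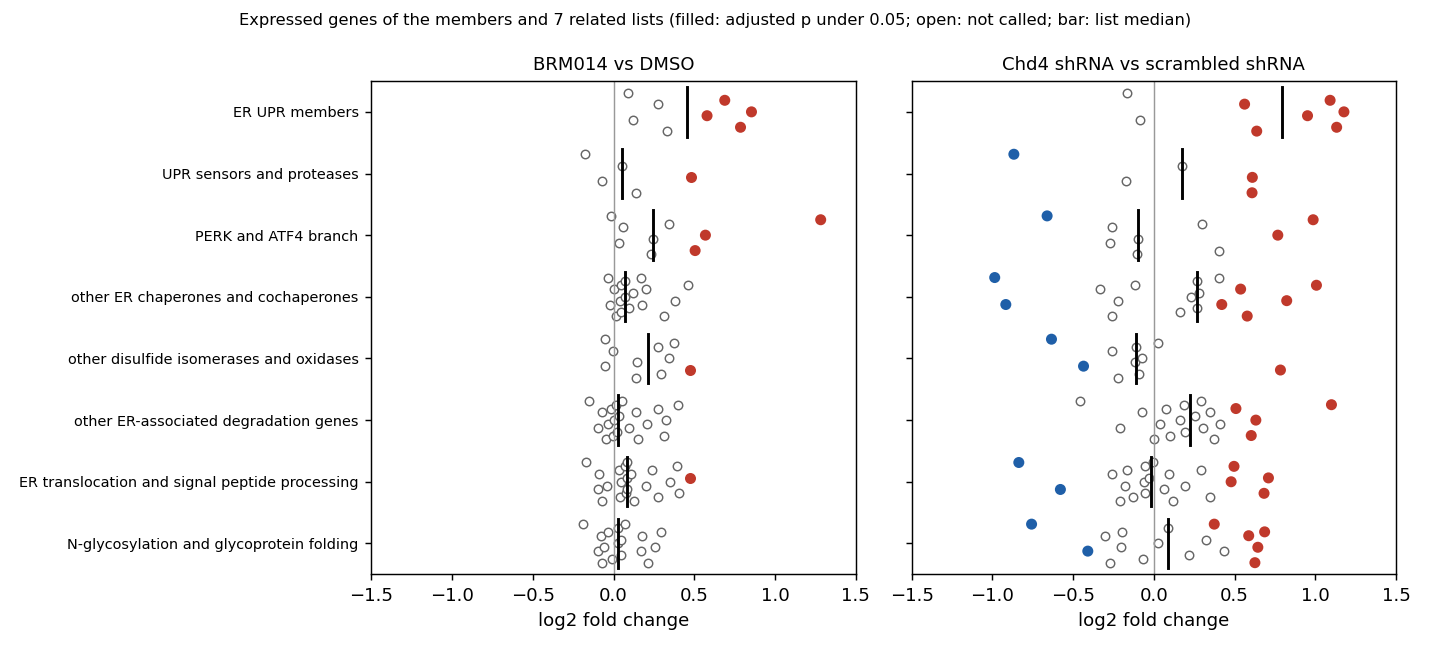
Log2 fold changes relative to expressed genes (x axis) of the 8 tested genes (top line) and of the expressed genes of 7 related lists, BRM014 against DMSO on the left and the libraries labelled Chd4 shRNA against scrambled shRNA on the right. Filled points have an adjusted p under 0.05, red higher and blue lower, open points were not called, and black bars are medians. The medians of the 8 genes, 0.46 and 0.79, lie to the right of those of the 7 lists. On the scale of all genes passing the default filter the median expressed gene on the right lies at -1.34, and the points move with it.

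The ERSE and ERSE-II were then set beside the response, by a choice made after the values had been seen. Among all expressed genes 2.46% were called higher and 4.69% lower with BRM014. With the libraries labelled Chd4 shRNA 20.4% were called higher and 20.2% lower. Of the 5 genes of the 10 with an ERSE, 3 were called higher with BRM014 and 4 with the libraries labelled Chd4 shRNA, Pdia6 being called in neither. Of the 32 other genes with an ERSE in a window, Ero1b, Gm35209, Gm39859 and Gm40542 had no row of that name in the count table. Their expression was not read. Of the rest, 5 were expressed. None of these 5 was called with BRM014, where Canx, the membrane lectin calnexin, had the largest value (0.46, adjusted p = 0.0599) and it and Hnrnpa3 had an unadjusted p under 0.05. With the libraries labelled Chd4 shRNA 3 were higher, Creld2 (0.54, adjusted p = 0.00383), Hnrnpa3 (0.45) and 1700122E12Rik (1.21), and Zfp57 was lower (-0.54, adjusted p = 0.00585). Beside Herpud1, 6 expressed genes had an ERSE-II. Rbm39 was higher with BRM014 (0.67, adjusted p = 0.00271), Krtcap2 (0.71) and Dnajb11 (0.42, adjusted p = 0.0484) were higher and Rcl1 (-0.46) lower with the libraries labelled Chd4 shRNA, and Gm46430 and Nucb1 were called in neither. Pdia4 and Dnajb9, each called in 1 comparison, have neither element in their windows, so the letters and the calls did not coincide throughout, and no count here is large enough to test.

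**Figure D5:**
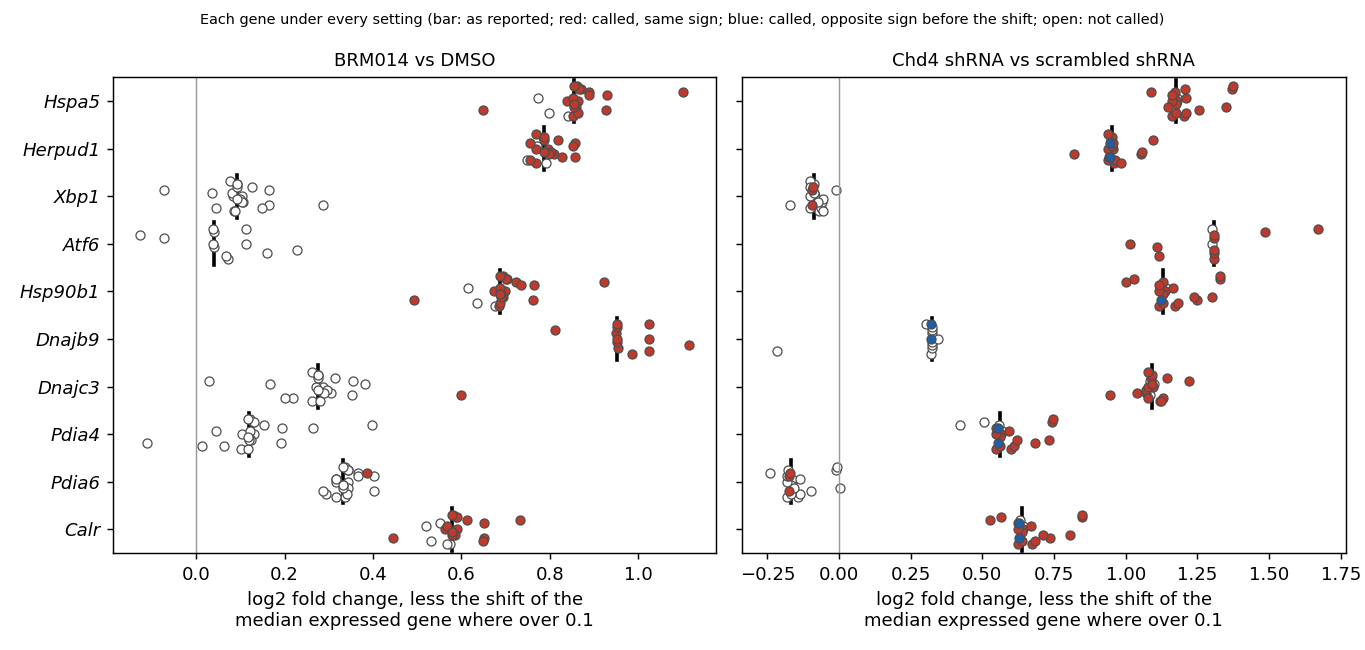
Log2 fold changes of the 10 genes (x axis, less the shift of the median expressed gene where that is over 0.1) under every setting tried, BRM014 against DMSO on the left and the libraries labelled Chd4 shRNA against scrambled shRNA on the right. Black bars are the values as reported, red points were called with the same sign, blue points were called with the opposite sign before the shift was taken off, and open points were not called. Hspa5 stays between 0.65 and 1.10 on the left and between 1.09 and 1.37 on the right, and blue points, from scales set by all genes, lie on the right.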

How the data were processed

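The table deposited by the authors holds raw read counts for each mm10 gene, beside counts of 92 ERCC RNAs. The tools named in the submitters' processing notes are Trim Galore 0.6.4, STAR 2.7.1a, featureCounts and edgeR 3.32.1. The strand counted and the treatment of reads with several alignments are not given in the sources used here. No normalized values were taken from the authors.

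Groups came from the sample labels. Replicate r4 of Chd4 shRNA and r3 of the scrambled hairpin have no matching sample title, so these columns count by group alone. The 10 genes, the lists and the tests were chosen with earlier results of these data known. Expressed genes were those passing edgeR's default filter (35426 genes) whose mean count was at least 10 times the mean background, measured per kb over 5330.25 kb of receptor gene exons. The 8017 genes were fitted with edgeR 4.0.16 in R 4.3.3 (quasi-likelihood F test, TMM scaling), with no block. A prior count of 2 was used only for the log2 CPM behind the correlations. Atf6 and Dnajb9 came from a fit of 15464 genes at 3 times the background with the same library sizes, added after the data were seen. SEs were taken from the F statistic, and 95% intervals from the same fit. The fit was tested on simulated data. Named genes were the 10, the 3 targeted genes, up to 4 called genes with the smallest p per list and comparison, and the 5 most alike by Pearson r. Genes named for an ERSE were added later.

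Replicates of a group differed beyond counting noise. The numbers r1 and r2 are shared by BRM014 and DMSO, and their r1 minus r2 deviations correlated at -0.217, so they were not treated as pairs. Libraries held 6982354 to 17128981 gene counts, which leaves rows under 100 counts, such as Dnajb9, imprecise. Alternatives were DESeq2 1.42.0, 3 ERCC scales, other filters, background subtraction, each comparison's own 4 libraries, a replicate block and each library left out. Promoters were RefSeq windows of GRCm38.p6. Figures were drawn with matplotlib 3.10.9. All 40 immunoprecipitation samples were left out as outside these genes' RNA.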

Additional observations from a re-analysis of the deposited data

Results flagged for a closer look

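For Dnajc3 and Pdia6 the effect of BRM014 differed from the effect in the libraries labelled Chd4 shRNA by the test of the difference itself, relative to expressed genes. Among all expressed genes the same test called 14.5% higher and 16.4% lower. The difference was -0.81 (log2) for Dnajc3, which had 17.94 and 20.44 CPM with BRM014 against 12.80 and 18.91 CPM with DMSO, and 24.88 and 29.997 CPM in the libraries labelled Chd4 shRNA against 13.32 and 12.41 CPM in the scrambled libraries. For Pdia6 it was 0.50, where the BRM014 libraries were above DMSO and the libraries labelled Chd4 shRNA below the scrambled ones. DMSO library r1 was lower than r2 for both genes, and background made up 22.6% and 20.5% of the counts of Dnajc3 in the libraries labelled Chd4 shRNA. On the scale of all genes passing the default filter the difference of Dnajc3 was called the other way, at 0.61 (edgeR adjusted p = 0.0285). There the median expressed gene lay at 1.40. The Pdia6 call ended without either BRM014 library, either library labelled Chd4 shRNA or either scrambled library. On the scale of expressed genes, with background subtracted, the difference was -0.77 for Dnajc3 (adjusted p = 0.0267) and 0.35 for Pdia6 (adjusted p = 0.148). Without library r1 of DMSO it was -1.06 for Dnajc3 and 0.45 for Pdia6 (adjusted p = 0.0413), and without library r2 it was -0.48 for Dnajc3 (adjusted p = 0.0680) and 0.57 for Pdia6 (adjusted p = 0.0122).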

How the results depend on the processing

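The counts below are of those of the 10 genes that a setting could fit. These are 8 as reported, all 10 where the filter was looser (all genes passing the default filter, no filter, 3 times the background), and 5 at 30 times the background, where Herpud1, Xbp1 and Dnajc3 were not fitted. With BRM014, 4 were higher, and this was 0 on each of the 3 ERCC scales, 3 to 6 with a library left out, and 3 with the replicate block, under which Calr lost its call (adjusted p = 0.229). The crossed pairing, chosen after seeing the data, gave 4. With the libraries labelled Chd4 shRNA, 6 were higher. This became 0 on TMM over all ERCC RNAs, and 0 higher with 6 lower (5 of the 8) when all genes passing the default filter set the scale. It was 0 higher with 7 lower (6 of the 8) with no filter, and 5 higher (4 of the 8, with Atf6) and 2 lower at 3 times the background, where those genes also set the scale. Those scales moved the median expressed gene by -1.34, -1.501 and -0.37. With a library left out 5 or 6 were higher. The difference between the effects had 1 higher and 1 lower. These became 0 and 1 on plain ERCC sums, 0 and 0 on both TMM scales of the ERCC RNAs, and 9 (the 8 and Dnajb9) and 0 with all genes or no filter. They became 3 and 1 at 3 times the background (2 and 0 of the 8), 0 and 0 at 30 times, where Dnajc3, the lower call, was not fitted, and 0 and 3 with background subtracted. At 3 times the background with the sizes of expressed genes they were 1 and 2 (1 and 1 of the 8), and 2 and 0 (1 and 0 of the 8) with background also subtracted. With a library left out they were 0 or 1 higher and 0 to 4 lower. Between scrambled and DMSO libraries, 0 were called either way, with 0 to 4 higher and 0 or 1 lower with a library left out. DESeq2 gave 4, 6 and 1 each way. The cause was not tested beyond the shifts of scale. Low counts limit Dnajb9 and Atf6, and the spread of the ERCC scales limits any statement per cell.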
